A study of Mus musculus with 2 samples.

Results

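The 10 genes described here are Tnf, which encodes tumour necrosis factor, and 9 genes of the nuclear factor kappa B (NF-kB) system, Nfkbia, Nfkbiz, Nfkbie, Tnfaip3, Tnip3, Nfkb1, Nfkb2, Rel and Relb. They were taken by gene symbol from the 31053 features counted in both libraries, and all 10 were present. The libraries came from the colon lamina propria of male mice 8 weeks old on the C57BL/6J strain. The WT library was from wild-type mice, and the KO library from mice carrying a CRISPR-Cas9 deletion of a long non-coding RNA, labelled LncRNA17Rik knockout and named lncLy6c by the study. Neither group received another treatment that the labels give. A pool of 6 mice is described, without saying whether that was per genotype, and each genotype is 1 library. No test between genotypes was therefore possible, there is no replicate check, and every interval below covers counting error only. The deletion is not described as limited to a cell type. The comparison asks how these genes differ in colon cells of mice that lack the RNA. No feature bears either name of the deleted RNA, and the genotype could not be checked from these counts.

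NF-kB is a family of paired transcription factors that wait in the cytoplasm bound to IkB proteins. Signals from Toll-like receptors, interleukin-1 and TNF itself lead to the breakdown of the IkB proteins, and the freed factors enter the nucleus and switch on inflammatory genes. Among their targets are their own inhibitors, so that the response is normally cut short, and in the gut this brake is known to limit inflammation driven by the microbiota. Of the 10 genes, Tnf is the secreted ligand. Nfkbia and Nfkbie encode the inhibitors IkB alpha and IkB epsilon, and Nfkbiz encodes the nuclear IkB zeta, which aids transcription of secondary targets. Tnfaip3 encodes a ubiquitin-editing enzyme that shuts off TNF and Toll-like receptor signalling, and Tnip3 encodes a member of the protein family that binds it. Nfkb1, Nfkb2, Rel and Relb encode subunits of the factors.

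The promoter sequences are shown because most of these genes are targets of the factors they regulate. RefSeq promoters (GRCm38.p6) were given for 7 of the 10 genes, not for Nfkbiz, Nfkb1 and Relb. Both strands of the 250 bases before each start were searched for the 10-letter kappaB consensus and for the 9 letters GGACTTTCC, which may overlap a consensus match. A consensus match was present for 6 of the 7 genes, against 8.23% of the 27025 genes with a promoter in the table. GGACTTTCC was present for 2 of the 7, Nfkbia and Nfkb2, against 0.333% of genes. The stretches below read 5′ to 3′ on the gene's strand and capitals mark the matches. They lie at chr17:35202008-35202257 (minus strand), chr12:55492648-55492897 (minus strand), chr17:45555580-45555699 (plus strand), chr6:65590278-65590397 (plus strand) and chr11:23770971-23771089 (minus strand).
Tnf: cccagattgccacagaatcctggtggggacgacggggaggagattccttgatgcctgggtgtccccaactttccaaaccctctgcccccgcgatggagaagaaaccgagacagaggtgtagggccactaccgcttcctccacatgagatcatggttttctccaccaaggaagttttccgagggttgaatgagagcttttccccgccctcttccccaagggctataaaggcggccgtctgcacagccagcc
Nfkbia: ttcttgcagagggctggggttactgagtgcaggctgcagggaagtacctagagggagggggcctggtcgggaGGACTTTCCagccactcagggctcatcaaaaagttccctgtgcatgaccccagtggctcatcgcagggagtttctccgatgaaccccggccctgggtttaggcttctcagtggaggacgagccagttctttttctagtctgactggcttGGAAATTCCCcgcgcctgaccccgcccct
Nfkbie: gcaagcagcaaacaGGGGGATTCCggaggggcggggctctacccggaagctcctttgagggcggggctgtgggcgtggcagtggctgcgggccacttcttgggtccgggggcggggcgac
Tnip3: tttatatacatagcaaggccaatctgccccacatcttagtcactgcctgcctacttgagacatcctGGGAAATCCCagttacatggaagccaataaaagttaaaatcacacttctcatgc
Rel: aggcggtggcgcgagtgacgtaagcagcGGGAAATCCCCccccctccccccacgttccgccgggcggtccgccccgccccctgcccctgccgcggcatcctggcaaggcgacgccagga
In Nfkbia the consensus match began 29 bases before the start. In Tnip3 it began 54 bases before it, in Rel 92 and in Nfkbie 106. These distances are from the RefSeq starts. For Tnip3 that start lies inside the gene span given below, which is from another annotation with an earlier start. The Tnf window held no consensus match, which says only that these letters are not in this window. A match is a description of letters and not evidence of binding.

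After the cell filters, 2597 WT and 2514 KO cells were left, with medians of 5073 and 6564 UMIs (unique molecular identifiers, 1 per captured RNA molecule). No barcode was shared between the kept cells of the 2 libraries. Cells were clustered together without the 10 genes and 56 further NF-kB pathway genes, and clusters were named from marker lists as resident macrophage-like, inflammatory monocyte-like (monocyte-like from here on) and so on. The labels call the cells CD11b+, but lymphoid, epithelial and fibroblast classes made up 34.9% of WT and 11.2% of KO cells, and Itgam, which encodes CD11b, was at 40.1 CPM in WT B cell-like cells against 259 CPM in WT resident macrophage-like cells. Levels are given as CPM, the UMIs of the gene for every 1000000 UMIs of the class in that library. CPM from 3′ libraries is not per gene length, so levels are compared between classes and libraries and not between genes. Counts were summed over the cells of a class, and in such sums more RNA per cell and a larger share of active cells cannot be told apart, so shares of cells are added where the data allow. The 8 classes with at least 50 cells in both libraries are used. Free RNA also gives UMIs in cells that do not express a gene, and plasma cell-like and epithelial-like cells serve as that background for Tnf and Tnip3.

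Tnf was mostly a gene of neutrophil-like cells, monocytes and macrophages in both libraries. In WT it stood at 945 CPM (819.6 to 1084) in neutrophil-like cells, the range in parentheses being the exact Poisson 95% interval. Monocyte-like cells followed with 428 CPM (406 to 450.5), resident macrophage-like cells with 281 CPM (257 to 306) and eosinophil-like cells with 185 CPM (139 to 241). None of these 4 intervals overlapped its neighbour. The levels in cDC2-like, T cell-like, cDC1-like and B cell-like cells were 73.1, 59.4, 48.6 and 40.1 CPM, each interval overlapping the next. In KO the order at the top was another. Resident macrophage-like cells were highest with 1485 CPM (1412 to 1561). Neutrophil-like cells with 689 CPM (638 to 744) and monocyte-like cells with 615 CPM (589 to 643) overlapped each other. Eosinophil-like cells had 109.7 CPM (81.7 to 144), and cDC2-like, cDC1-like, T cell-like and B cell-like cells had 76.4, 66.7, 59.5 and 27.3 CPM. Of the background classes, WT plasma cell-like cells had 9.98 CPM (7.16 to 13.5) and WT epithelial-like cells 23.9 CPM (17.9 to 31.1), the latter overlapping B cell-like cells. In KO the 5 plasma cell-like cells had 0 Tnf UMIs, which allows up to 20.96 CPM, but the 17 epithelial-like cells had 138 CPM (85.6 to 211), above the cDC2-like, cDC1-like, T cell-like and B cell-like levels and overlapping the eosinophil-like level. Those 21 UMIs came from 2 cells, 1 of which held 20. The KO levels of eosinophil-like cells and the 4 classes below them thus lay at or under 1 background class, while that of B cell-like cells alone had an interval, 13.6 to 48.8 CPM, that reached the limit of the other. Tnf lies at chr17:35199381-35202007 (GRCm38, GENCODE M21), and the coordinates of the other genes are from the same annotation, in which all 10 are protein-coding.

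**Figure D1:**
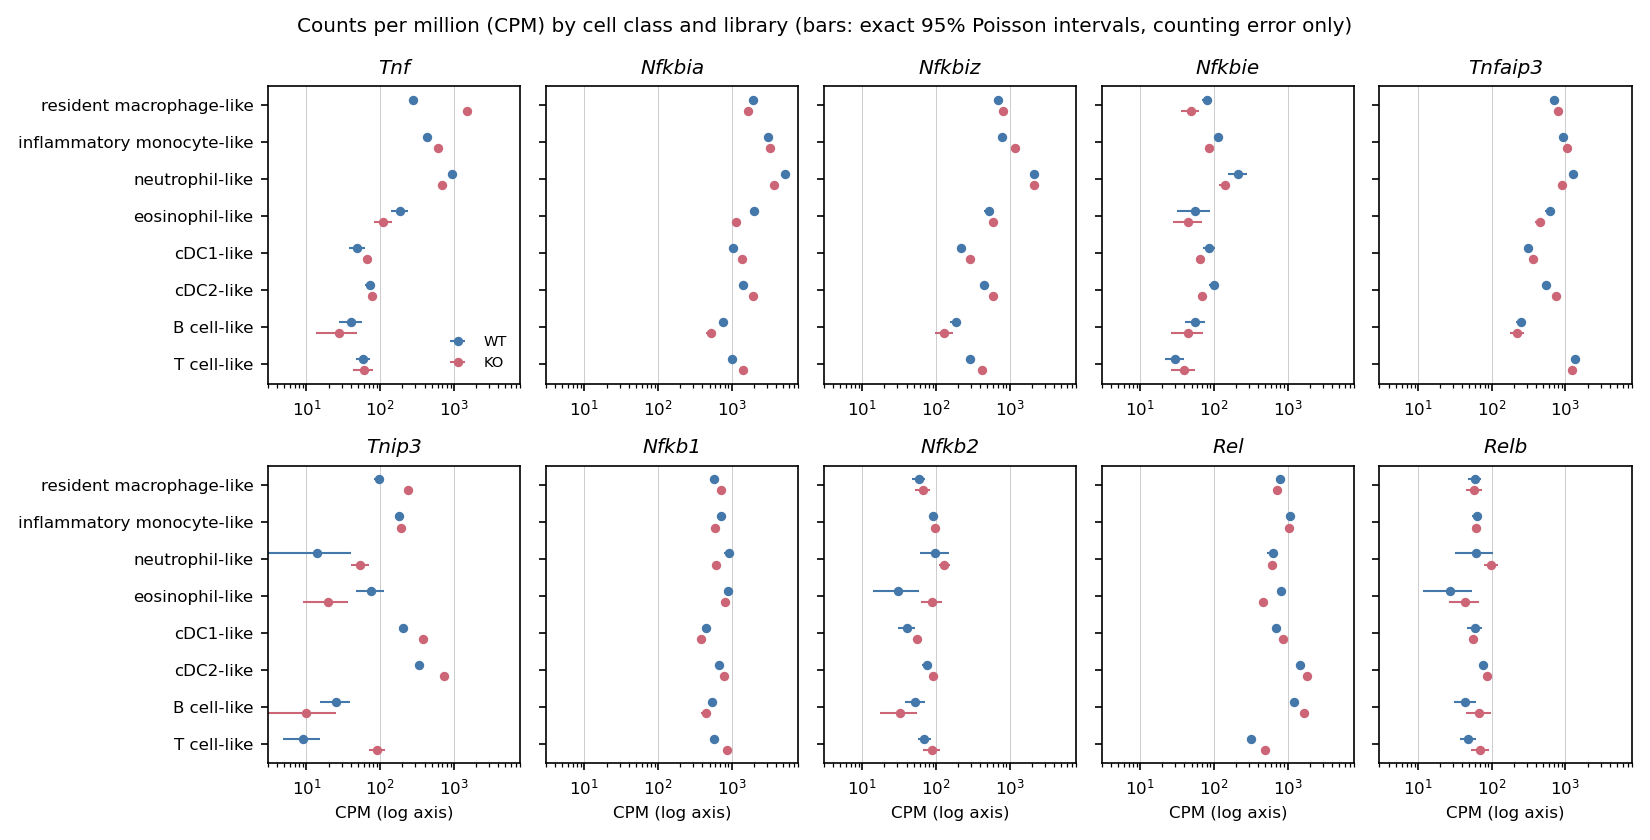
Level in CPM (log axis) of each of the 10 genes in the 8 cell classes, WT in blue and KO in red, with exact 95% Poisson intervals that cover counting error only and 1 library per genotype. The largest gap between libraries for Tnf is in resident macrophage-like cells, at 281 CPM for WT and 1485 CPM for KO, and Tnip3 is highest in cDC2-like cells in both.

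In resident macrophage-like cells, 512 Tnf UMIs came from 279 WT cells and 1561 from 128 KO cells. The KO to WT log2 ratio was 2.40 (2.26 to 2.55), the exact 95% counting interval standing in parentheses. The median ratio of the 5593 genes with at least 50 UMIs in this class was -0.23, and relative to that median the Tnf ratio was 2.63. Of the 10 genes, 2 were at least 2-fold higher in KO here, Tnf and Tnip3, against 2.93% of all genes, and 0 were at least 2-fold lower, against 6.96%. The median ratio of the 10 was 0.18. The 10 resident macrophage markers summed to 9078 CPM for WT and 9413 CPM for KO, with 0 of them at 0 in either, and the 9 inflammatory monocyte markers to 951 and 361 CPM. A list of 17 genes that tissue dissociation is known to induce summed to 15739.9 CPM for WT and 19326 CPM for KO, and 4 of the 17 were at least 2-fold higher in KO. The part of dissociation in the Tnf ratio was not tested.

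The share of cells with a Tnf UMI differed in the same direction. It was 54.5% of WT and 83.6% of KO resident macrophage-like cells as found, at median depths of 5586 and 6874 UMIs. After each cell was thinned at random to 2000 UMIs, with 56 WT and 18 KO cells below that depth left out, it was 39.9% (33.4 to 46.7%) and 73.6% (64.4 to 81.6%), exact Clopper-Pearson 95% intervals. In the background classes of WT the thinned share was 1.80% of plasma cell-like cells (median 17793 UMIs) and 4.30% of epithelial-like cells (median 18679 UMIs). Few such cells were in the KO library, 5 and 17. At 2000 UMIs, 5 or more Tnf UMIs were found in 1.35% (0.278 to 3.88%) of WT resident macrophage-like cells and in 27.3% (19.2 to 36.6%) of those in KO. The highest cell had 122 Tnf UMIs before thinning, and the 5 highest KO cells held 20.5% of the UMIs. Without the 5 highest cells of each library the log2 ratio was 2.35.

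**Figure D2:**
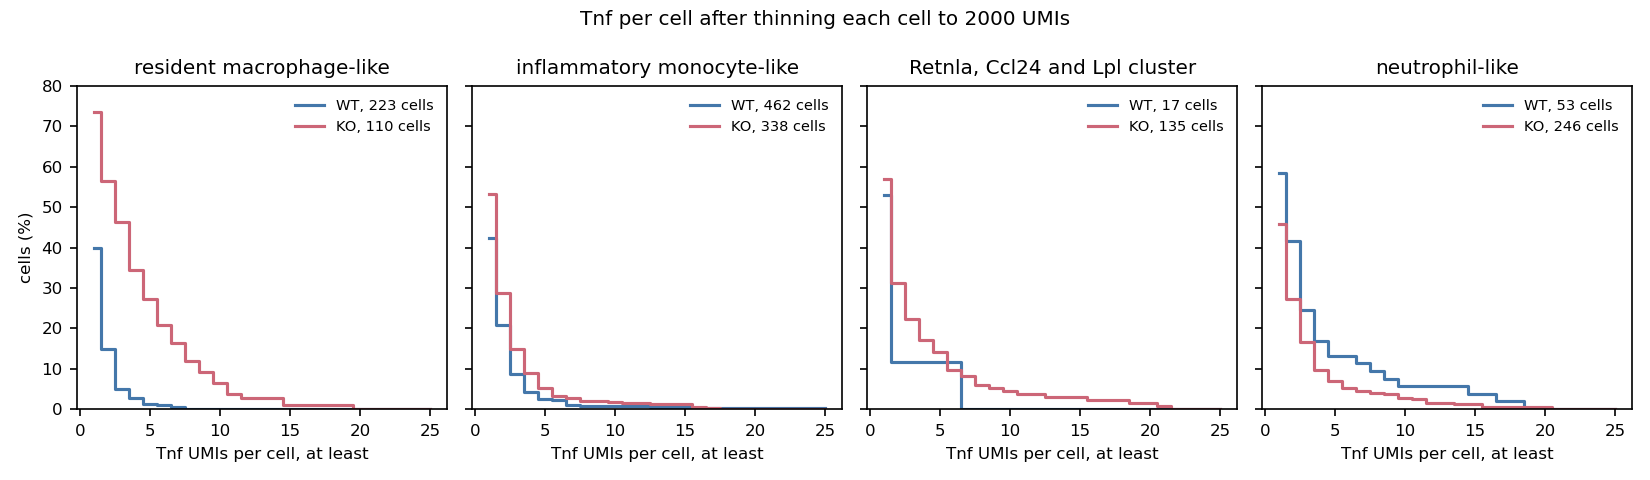
Share of cells (%) with at least the number of Tnf UMIs on the x axis, after thinning to 2000 UMIs per cell, for WT (blue) and KO (red) in 4 groups of cells. In resident macrophage-like cells the KO curve starts at 73.6% and the WT curve at 39.9%. In neutrophil-like cells the WT curve starts at 58.5% and the KO curve at 45.9%, from 53 WT and 246 KO cells. The exact intervals of those neutrophil-like shares overlap, and the shares before thinning were nearly equal.

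Within the KO resident macrophage-like cells, Tnf was unevenly spread. The 42 cells with a UMI of Ifnb1, which encodes interferon beta, had 2231 CPM of Tnf (2090.1 to 2378) and the 86 cells without one had 989.7 CPM (914 to 1070.4), at median depths of 8778 and 6486 UMIs. None of the 279 WT resident macrophage-like cells had an Ifnb1 UMI, which allows a share of up to 1.08% of cells with a UMI at this depth and does not limit the share of cells that express it. With the Ifnb1-positive cells left out, the KO to WT log2 ratio of Tnf was 1.82 (1.65 to 1.99), so the KO level was above WT in the remaining cells also. This split was chosen after the values had been seen.

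Monocyte-like cells showed a smaller Tnf ratio. With 1412 UMIs in 604 WT cells and 2010 in 380 KO cells it was 0.53 (0.43 to 0.62), or 0.70 relative to the median of -0.18 over the 7336 genes of that class. None of the 10 genes was past 2-fold in this class in either direction, against 2.47% of all genes higher and 6.8% lower, and the median of the 10 was 0.09. The 10 resident macrophage markers summed to 1518 CPM in WT monocyte-like cells, with 0 of them at 0, and to 443 CPM in KO, with 1 at 0, and their part in the Tnf ratio was not tested. Different clusters held most of the class in the 2 libraries. The cluster led by Cxcl9 and Tgfbi had 520 WT and 45 KO cells, and there Tnf was at 437 CPM for WT and 819.9 CPM for KO. The cluster led by Chil3 and Ace had 53 WT and 294 KO cells, and there Tnf was at 455 CPM for WT and 592 CPM for KO. The remaining cluster, with Rsad2 and Ccl7 among its leading genes, had 31 WT and 41 KO cells, and there Tnf was at 315 CPM for WT and 603 CPM for KO. Tnf was thus higher in KO within each of the 3 clusters, with log2 ratios of 0.91 (0.71 to 1.10), 0.38 (0.13 to 0.64) and 0.94 (0.58 to 1.31). In the Rsad2 and Ccl7 cluster 2 of the 10 genes were at least 2-fold higher in KO, Nfkbiz at 1.18 (0.90 to 1.47) and Tnip3 at 1.02 (0.37 to 1.70), against 9.91% of all genes, and 2 were at least 2-fold lower, Nfkb2 at -1.31 (-2.13 to -0.53) and Relb at -1.21 (-2.06 to -0.40), against 7.56%. Thinned shares were 42.4% (37.9 to 47.1%) in WT and 53.3% (47.8 to 58.7%) in KO, and 58.6% and 77.6% as found, at medians of 5170.5 and 9152 UMIs. The dissociation list summed to 13745 CPM for WT and 12089.5 CPM for KO in this class, but 2 of its 17 genes, the heat shock genes Hspa1a (1.67) and Hspa1b (1.76), were at least 2-fold higher in KO and 0 lower, and its median ratio was 0.04. Within the clusters the dissociation list moved differently. In the Cxcl9 and Tgfbi cluster 0 of the 17 were at least 2-fold higher and 6 lower, with a median of -0.68. Of all genes there, 2.95% were higher and 14.1% lower, with a median of -0.20. In the Chil3 and Ace cluster 1 was higher and 1 lower, with a median of -0.23. There 4.61% of all genes were higher and 5.99% lower, with a median of -0.12. In the Rsad2 and Ccl7 cluster 5 were higher and 0 lower, with a median of 0.14. The part of this list in the ratios of the class and its clusters was not tested.

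The division between resident macrophages and monocytes depends on the clustering, so they were also pooled. In the pool of 883 WT and 508 KO cells, Tnf was at 375 CPM for WT and 827 CPM for KO, a log2 ratio of 1.14 (1.06 to 1.22). Tnf was the 1 gene of the 10 at least 2-fold higher there, against 2.59% of 8327 genes, and 0 of the 10 were at least 2-fold lower, against 5.82%. The median of the 10 ratios was 0.15 and that of all genes -0.19. The 10 resident macrophage markers summed to 4206 CPM for WT and 2627 CPM for KO in the pool. The 9 inflammatory monocyte markers summed to 4167 and 5324 CPM. Of the 17 dissociation genes, 2 were at least 2-fold higher in KO and 0 lower. The part of these in the pooled ratio was not tested. A cluster led by Retnla, Ccl24 and Lpl, with 17 WT and 142 KO cells, had markers of both classes raised and stayed unnamed and outside the pool. Its Tnf was at 362 CPM (266 to 482) for WT and 1025 CPM (977 to 1076) for KO, and 1 KO cell held 262 Tnf UMIs. Counted as resident macrophage-like it brought the resident log2 ratio to 2.07.

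**Figure D3:**
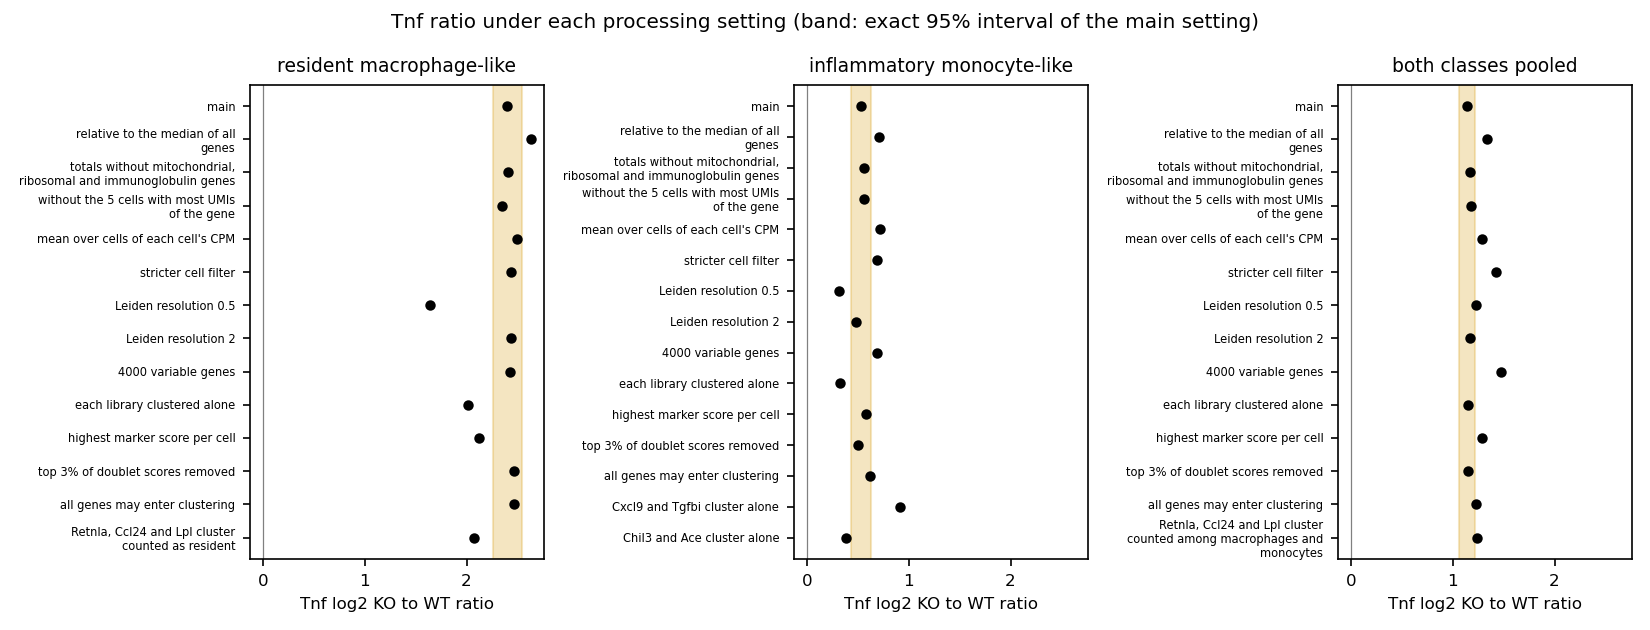
KO to WT log2 ratio of Tnf (x axis) in resident macrophage-like cells, monocyte-like cells and both pooled, under the main and each alternative setting (points), with the exact 95% interval of the main setting as a band. Each point lies above 0, with resident macrophage-like values from 1.65 to 2.63, monocyte values from 0.31 to 0.91 and pooled values from 1.14 to 1.47, though the settings assign different cells to a class.

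In the other classes Tnf was not higher in KO by as much. Neutrophil-like cells had lower Tnf in KO, with a log2 ratio of -0.46 (-0.68 to -0.22), thinned shares of 58.5% (44.1 to 71.9%) in WT and 45.9% (39.6 to 52.4%) in KO, and shares of 56.1% and 55.8% as found. The thinned intervals overlapped, and thinning kept 53 of 82 WT and 246 of 274 KO neutrophil-like cells. The 8 neutrophil markers summed to 41944 CPM in these WT cells and 72132 CPM in KO, and the dissociation list to 22501 and 14815 CPM. Their part in the ratio was not tested. Eosinophil-like cells, whose KO level overlapped that of KO epithelial-like cells, also had a negative ratio, -0.75 (-1.33 to -0.17), from 54 WT and 51 KO UMIs. Over its 10 alternatives the eosinophil-like ratio ran from -1.63 to -0.19, and 1 was past 2-fold. In this class the 6 mast cell markers summed to 3622 CPM in WT, with 3 of them at 0, and to 15.1 CPM in KO, with 4 at 0. The 6 eosinophil markers summed to 1079 and 1711 CPM, and the 8 neutrophil markers to 6514 and 6959 CPM. The part of this make-up in the eosinophil-like ratios of Tnf and the other genes was not tested. In cDC1-like cells, whose KO level lay below that of KO epithelial-like cells, the ratio was 0.45 (0.07 to 0.86), and the intervals of cDC2-like and T cell-like cells spanned 0, at 0.06 (-0.19 to 0.32) and 0.00 (-0.56 to 0.54). B cell-like cells, with 32 WT and 11 KO UMIs, had too few for a ratio. In the WT library 51.0% of all Tnf UMIs came from monocyte-like cells and 18.5% from resident macrophage-like cells. In the KO library these were 28.6% and 22.2%, the Retnla, Ccl24 and Lpl cluster held 23.7% and neutrophil-like cells 9.33%.

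The IkB genes were highest in neutrophil-like cells in both libraries. Nfkbia (chr12:55489410-55492647) was at 5238 CPM (4936 to 5553) for WT and 3681 CPM (3559.8 to 3805) for KO neutrophil-like cells, then at 3066 CPM for WT and 3290.3 CPM for KO in monocyte-like cells, and was lowest in B cell-like cells with 756 CPM for WT and 516 CPM for KO. Between these, resident macrophage-like cells had 1933 CPM for WT and 1642 CPM for KO, cDC2-like cells 1426 CPM for WT and 1956 CPM for KO and eosinophil-like cells 2012 CPM for WT and 1129.7 CPM for KO. It was near saturation as a share, with a UMI in 97.4% of WT and 96.7% of KO monocyte-like cells at 2000 UMIs.

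The Nfkbia log2 ratio in resident macrophage-like cells was -0.23 (-0.32 to -0.15), which is -0.01 relative to the median of all genes, and it turned to 0.14 with the Retnla, Ccl24 and Lpl cluster counted in and to 0.01 with cells assigned by their highest marker score. In monocyte-like cells it was 0.10 (0.06 to 0.14), and -0.10 by that assignment. For the T cell-like ratios of all 10 genes, the make-up of the class differed between libraries. There the 6 NK cell markers summed to 10342 CPM for WT and 40.5 CPM for KO with 0 of them at 0, the 6 mast cell markers to 1618 and 0 CPM, and the innate lymphoid cell markers to 269 and 489 CPM, and the part of this in the ratios was not tested. Ratios of Nfkbia were 0.46 (0.40 to 0.51) in cDC2-like, 0.40 (0.32 to 0.49) in cDC1-like and 0.46 (0.34 to 0.57) in T cell-like cells. They were negative in neutrophil-like, eosinophil-like and B cell-like cells, at -0.51 (-0.61 to -0.41), -0.83 and -0.55 (-0.78 to -0.32). None of these ratios reached 2-fold. The make-up of the B cell-like class also differed between libraries. Its 8 neutrophil markers summed to 915 CPM for WT and 17.4 CPM for KO, and its 9 inflammatory monocyte markers to 1085 and 739 CPM. The dissociation list summed to 9944 and 7195 CPM there. The part of these in the B cell-like ratios of each gene was not tested.

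Nfkbiz (chr16:55811375-55838899) had the same order at the top in both libraries, neutrophil-like at 2137 CPM for WT and 2109 CPM for KO, then monocyte-like at 789.8 CPM for WT and 1165 CPM for KO, then resident macrophage-like at 704 CPM for WT and 821 CPM for KO, with no overlap between these neighbours in either. Of the 8 classes its log2 ratio was highest in monocyte-like cells, 0.56 (0.49 to 0.63), and 69.0% (64.6 to 73.2%) of thinned WT cells and 80.2% (75.5 to 84.3%) of thinned KO cells had a UMI. For resident macrophage-like cells the ratio was 0.22 (0.10 to 0.35) and for neutrophil-like cells -0.02 (-0.17 to 0.13). In the cDC2-like, cDC1-like and T cell-like classes it was 0.40, 0.43 and 0.50, the last turning to -0.05 with each library clustered alone.

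Nfkbie (chr17:45555703-45563169) had fewer UMIs. Its ratio was below 0 in 6 of the 7 classes with at least 50 UMIs, T cell-like cells being the exception at 0.40, which turned to -0.26 under a stricter cell filter, and the median of all genes was below 0 in all 7. It stood at 214 CPM (157 to 286) for WT and 141 CPM (118 to 167) for KO neutrophil-like cells, above each of the other 7 classes in both libraries. Resident macrophage-like cells had 81.2 CPM (68.7 to 95.4) for WT and 48.5 CPM (36.1 to 63.8) for KO, from 148 and 51 UMIs, a log2 ratio of -0.74 (-1.23 to -0.27). The interval was also below 0 in monocyte-like, cDC1-like, cDC2-like and neutrophil-like cells, with ratios of -0.40, -0.40, -0.52 and -0.61. The monocyte value was 0.35 in the Chil3 and Ace cluster alone and 0.17 at the coarser clustering, so its direction there rests on how the class is cut. The median depth per cell was higher in KO in all 5 of these classes. The dissociation list had median ratios of 0.37, 0.04, 0.10, -0.17 and -0.36 in resident macrophage-like, monocyte-like, cDC1-like, cDC2-like and neutrophil-like cells. The part of depth and of dissociation in the Nfkbie ratios was not tested.

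Of the ubiquitin regulators, Tnfaip3 was found in all 8 classes and none of its ratios reached 2-fold. Of these 8, Tnfaip3 (chr10:19000910-19015657) was highest in T cell-like cells, with 1346 CPM (1286 to 1407) for WT and 1211 CPM (1133 to 1293) for KO. It was lowest in B cell-like cells with 247 CPM for WT and 221 CPM for KO. Outside the 8 classes, NK cell-like cells, 26 in WT and 41 in KO, stood higher. They had 1847 CPM (1636 to 2077) for WT and 1676 CPM (1494 to 1874) for KO. In WT the T cell-like interval overlapped that of neutrophil-like cells, 1271 CPM (1125 to 1431). Resident macrophage-like cells had a log2 ratio of 0.16 (0.03 to 0.29), monocyte-like cells 0.16 (0.09 to 0.23), cDC2-like cells 0.47 (0.39 to 0.56) and neutrophil-like cells -0.49 (-0.69 to -0.29). The thinned shares of resident macrophage-like cells with a UMI were 67.7% (61.1 to 73.8%) in WT and 68.2% (58.6 to 76.7%) in KO.

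Tnip3 (chr6:65525313-65634040) had a different pattern, being highest, among the named classes, in the conventional dendritic cells. In cDC2-like cells, which present antigen to helper T cells, it was at 333 CPM (309.8 to 357) for WT and 736 CPM (716 to 755) for KO. In cDC1-like cells, the cross-presenting dendritic cells, it was at 202 CPM (179 to 227) and 384 CPM (367 to 402). The cDC2-like interval was above those of the other 7 classes in both libraries. In WT the cDC1-like interval overlapped that of monocyte-like cells, 181 CPM (167 to 196). Outside the named classes, the Tnip3 interval of the unnamed Retnla, Ccl24 and Lpl cluster lay above that of cDC2-like cells in WT. In KO the interval of this cluster lay between those of cDC2-like and cDC1-like cells, with the values given at the end. The cDC2-like log2 ratio was 1.14 (1.04 to 1.25), and Tnip3 was the 1 gene of the 10 at least 2-fold higher there, against 3.2% of 7968 genes, with 0 of the 10 lower, against 6.89%. Thinned shares were 38.1% (31.6 to 45.0%) in WT and 67.6% (63.3 to 71.8%) in KO, and 64.7% and 94.0% as found, at medians of 10069 and 14493 UMIs. Its background was 1.80% of WT plasma cell-like and 10.8% of WT epithelial-like cells. In epithelial-like cells Tnip3 stood at 78.2 CPM (67.1 to 90.6) in the 123 WT cells and at 283 CPM (205 to 381) in the 17 KO cells, where 4 cells held all 43 UMIs. The 9 inflammatory monocyte markers in cDC2-like cells summed to 1920.1 CPM for WT and 653 CPM for KO, with 0 of them at 0, and the dissociation list to 10752 and 8859 CPM, and their part in the Tnip3 ratio was not tested. The cDC2-like class also holds a cluster led by Ccl17 and Mgl2, with 2 WT and 123 KO cells, where KO Tnip3 was at 929 CPM. In the Plet1 cluster alone the levels were 325 CPM for WT and 671 CPM for KO, a log2 ratio of 1.05.

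The cDC1-like ratio of Tnip3 was 0.93 (0.75 to 1.12). In this class the 9 inflammatory monocyte markers summed to 1523 CPM for WT and 680 CPM for KO. The 7 cDC1 markers summed to 1970 and 1444 CPM, and the dissociation list to 11222 and 11968 CPM. Of that list 1 gene, Hspa1a (1.10), was at least 2-fold higher in KO and 0 were lower. The part of these in the cDC1-like ratios was not tested. In cDC1-like cells 0 of the 10 genes were past 2-fold, against 2.31% of all genes higher and 1.97% lower. This count depends on the processing. The Tnip3 ratio was past 2-fold under 7 of 12 alternatives and reached 2.50 with each library clustered alone, where Nfkbia, Nfkbiz, Tnfaip3 and Rel were at 1.11, 1.26, 1.12 and 1.12. Tnf was at 1.29 under a stricter cell filter and at 1.41 with 4000 variable genes, and Nfkb2 at 1.15 at the coarser clustering. In resident macrophage-like cells Tnip3 was at 96.0 CPM (82.3 to 111) for WT and 237 CPM (208 to 268) for KO, a log2 ratio of 1.30 (1.02 to 1.59), with thinned shares of 15.2% (10.8 to 20.6%) and 30.9% (22.4 to 40.4%). The KO level overlapped that of the 17 KO epithelial-like cells. In barcodes that failed the cell filters, Tnip3 was also higher in KO than in WT. Its KO level there was above those of KO resident macrophage-like and cDC1-like cells, with the values given at the end. The 8 cDC2 markers in resident macrophage-like cells summed to 467 CPM for WT and 672 CPM for KO. The part of free RNA, or of what these markers reflect, in the Tnip3 ratio was not tested. In monocyte-like cells the interval spanned 0, at 0.09 (-0.07 to 0.26), and the ratio was 1.05 under the stricter cell filter. In T cell-like cells Tnip3 had 13 WT and 67 KO UMIs, a log2 ratio of 3.33 (2.46 to 4.32), but 5 KO cells held 82.1% of the KO UMIs, and the thinned shares, 1.68% and 4.63%, were near background. It was the 1 gene of the 10 past 2-fold higher in T cell-like cells, against 3.15% of all genes, with 0 lower, against 10.6%. In neutrophil-like cells 3 WT and 51 KO UMIs gave 1.94 (0.31 to 4.26). This was again 1 of the 10 higher, against 5.07% of all genes, with 0 lower, against 7.14%. The neutrophil value turned to -0.33 when cells were assigned by their highest marker score, so no direction is drawn from it. cDC2-like cells held 34.9% of all Tnip3 UMIs in WT and 58.0% in KO, while their share of all UMIs was 12.3% and 33.3%.

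**Figure D4:**
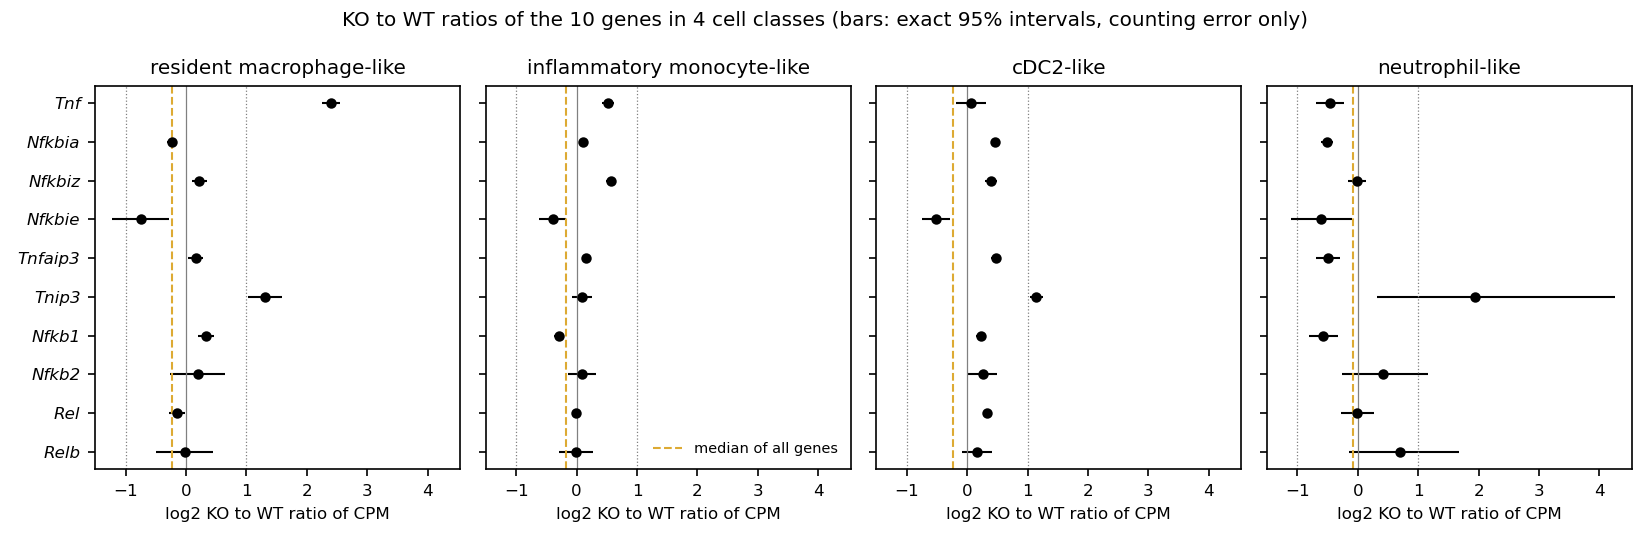
KO to WT log2 ratios of CPM (x axis) for the 10 genes in 4 cell classes, with exact 95% intervals that cover counting error only, the median ratio of all genes as a dashed line and 2-fold as dotted lines. Tnf lies past 2-fold in resident macrophage-like cells at 2.40, Tnip3 in resident macrophage-like cells at 1.30 and in cDC2-like cells at 1.14, and Nfkbie lies below 0 in each panel.

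Of the subunit genes, Nfkb1 (chr3:135584655-135691547), whose product is the precursor of a DNA-binding subunit, spanned a narrow range over the 8 classes, from 441 to 903 CPM in WT and from 386 to 863 CPM in KO, with cDC1-like cells lowest in both. Outside the 8 classes, NK cell-like cells stood above this range in both libraries. They held 2.51% of Nfkb1 UMIs in WT and 1.74% in KO, beside 0.793% and 0.823% of all UMIs. Resident macrophage-like cells had a log2 ratio of 0.33 (0.19 to 0.46) and monocyte-like cells -0.29 (-0.38 to -0.20). The monocyte value was 0.07 in the Cxcl9 and Tgfbi cluster and 0.02 in the Chil3 and Ace cluster, and its ratio in the Rsad2 and Ccl7 cluster was 0.17 (-0.14 to 0.49), so the negative value was not found within any of them. The ratio was 0.58 (0.43 to 0.73) in T cell-like cells, or -0.07 with each library clustered alone, and -0.58 (-0.81 to -0.33) in neutrophil-like cells.

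Rel (chr11:23736847-23770970), the subunit known for lymphocyte and dendritic cell activation, was highest in cDC2-like cells, with 1461 CPM (1413 to 1511) for WT and 1839 CPM (1809 to 1870.4) for KO, followed by B cell-like cells with 1221 CPM (1145 to 1299.9) and 1692 CPM (1567 to 1824). These neighbours overlapped in KO and not in WT. T cell-like cells were lowest in WT, at 316 CPM, and eosinophil-like cells in KO, at 469 CPM. For Rel, resident macrophage-like cells had a log2 ratio of -0.15 (-0.28 to -0.02) and monocyte-like cells -0.01 (-0.08 to 0.06). The resident value turned to 0.08 when set against the gene-wide median. The monocyte value differed between its clusters, -0.04 (-0.21 to 0.12) in the Cxcl9 and Tgfbi cluster, 0.52 (0.33 to 0.71) in the Chil3 and Ace cluster and -0.39 (-0.65 to -0.14) in the Rsad2 and Ccl7 cluster, and 5 of its 14 alternatives kept its sign. Higher values in KO were seen in T cell-like cells, 0.64 (0.44 to 0.84), B cell-like cells, 0.47 (0.33 to 0.61), cDC2-like cells, 0.33 (0.28 to 0.39), and cDC1-like cells, 0.34 (0.24 to 0.45), and a lower one in eosinophil-like cells, -0.79 (-1.06 to -0.51). The T cell-like value was -0.24 when each library was clustered alone.

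Relb (chr7:19606217-19629438) and Nfkb2 (chr19:46304320-46312385), the subunits of the slower non-canonical arm, had few UMIs in most classes. Exons of Nfkb2 overlap exons of Psd on the other strand, so its counts depend on the strand setting of the counting, which is not given in the sources used here. Relb ran from 27.4 to 77.4 CPM in WT and from 43.0 to 98.8 CPM in KO, with each neighbour in the order overlapping the next, and the interval of its ratio spanned 0 in the 7 classes with at least 50 UMIs. Nfkb2 ran from 30.8 to 97.8 CPM in WT and from 32.3 to 130.3 CPM in KO. In eosinophil-like cells 9 WT and 41 KO UMIs gave a log2 ratio of 1.52 (0.45 to 2.74). It was the 1 of the 7 genes with enough UMIs in that class past 2-fold higher, against 6.83% of all genes, with 0 lower, against 6.37%. In B cell-like cells, where 8 of the 10 had enough UMIs, none was past 2-fold, against 0.763% of all genes higher and 6.43% lower. Outside the 8 classes, the mature DC-like cells, 19 in WT and 41 in KO, are described because of their values. There Relb was at 519 CPM (413 to 643) for WT and 348 CPM (304 to 398) for KO, and Nfkb2 at 219 CPM (152 to 304) and 175 CPM (144 to 211). Rel was at 1987 CPM (1775 to 2218) for WT and 1827 CPM (1723 to 1936) for KO in these cells. The WT interval of Rel lay above that of WT cDC2-like cells. Nfkb2 was also high in the 41 KO NK cell-like cells, at 234 CPM (169 to 315), beside 93.0 CPM (50.8 to 156) in the 26 WT cells of that class. In mature DC-like cells the 1 gene of the 10 past 2-fold was Nfkbie, lower in KO at 57.3 CPM (40.1 to 79.3) against 194 CPM (132 to 275) in WT, a ratio of -1.76 (-2.49 to -1.02), where 11.3% of all genes were at least 2-fold lower and 6.83% higher.

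Over the 8 classes and the pool, of 85 ratios with at least 50 UMIs, 7 were past 2-fold, all of those 7 higher in KO, 2 of Tnf, 4 of Tnip3 and 1 of Nfkb2. Of all genes, 0.763% (B cell-like) to 6.83% (eosinophil-like) were at least 2-fold higher. From 1.97% (cDC1-like) to 10.6% (T cell-like) were at least 2-fold lower. The 2 Tnf ratios share cells, since the pool holds the resident macrophage-like cells. For 1 of the 4 Tnip3 ratios, in neutrophil-like cells, no direction is drawn. The median of the members was 0.29 in cDC2-like, 0.37 in cDC1-like and 0.48 in T cell-like cells, where the medians of all genes were -0.23, -0.11 and -0.19. It was -0.24 in neutrophil-like, -0.46 in eosinophil-like and -0.32 in B cell-like cells, beside -0.07, 0.07 and -0.09 for all genes. Members share pathways and cells and are not replicates.

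Among the 56 other genes of the pathway, 47 had at least 50 UMIs in resident macrophage-like cells, of which 8 were at least 2-fold higher in KO and 5 at least 2-fold lower, the median being -0.14. The highest ratios were those of the chemokine genes Ccl4 (1046 CPM for WT and 12028 CPM for KO, log2 ratio 3.52), Ccl3 (416 CPM for WT and 3244 CPM for KO, log2 ratio 2.96) and Cxcl1 (584 CPM for WT and 2078 CPM for KO, log2 ratio 1.83). The lowest of those with UMIs in both were Ptgs2, the inducible prostaglandin synthase (1763 CPM for WT and 689.8 CPM for KO, log2 ratio -1.35), the kinase gene Chuk (52.7 CPM for WT and 21.9 CPM for KO, log2 ratio -1.27) and the IkB family gene Bcl3 (130.0 CPM for WT and 56.1 CPM for KO, log2 ratio -1.21). Il12b, a subunit of interleukin 12, had 90 UMIs in WT and 0 in KO, which allows up to 2.85 CPM in KO against 49.4 CPM in WT. The receptor genes Tnfrsf1a and Tnfrsf1b, through which TNF acts, had log2 ratios of -0.53 and -0.39, and were named after their values were seen.

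In monocyte-like cells 7 of 52 pathway genes were at least 2-fold higher and 1 lower, with a median of -0.11. Il12b was highest there (1.51 CPM for WT and 78.1 CPM for KO, log2 ratio 5.69), opposite in direction to its values in resident macrophage-like cells, followed by Ccl3 (328 CPM for WT and 1133 CPM for KO, log2 ratio 1.79) and Ccl2 (239 CPM for WT and 803 CPM for KO, log2 ratio 1.75). The lowest were Tnfsf13b (11.5 CPM for WT and 4.90 CPM for KO, log2 ratio -1.23), Birc2 (82.7 CPM for WT and 44.1 CPM for KO, log2 ratio -0.91) and Traf2 (19.1 CPM for WT and 10.7 CPM for KO, log2 ratio -0.83). In the pool 7 of 53 were at least 2-fold higher and 1 lower, led by Ccl4 (621 CPM for WT and 3677 CPM for KO, log2 ratio 2.56), Ccl3 (359 CPM for WT and 1647 CPM for KO, log2 ratio 2.20) and Ccl2 (245 CPM for WT and 785 CPM for KO, log2 ratio 1.68), with Ltb (10.7 CPM for WT and 5.33 CPM for KO, log2 ratio -1.01), Ptgs2 (1985 CPM for WT and 1152 CPM for KO, log2 ratio -0.78) and Tnfsf13b (19.9 CPM for WT and 11.8 CPM for KO, log2 ratio -0.75) at the other end. For the pathway genes in the other classes, 4 of 50 were at least 2-fold higher and 1 lower in cDC2-like cells (3.2% and 6.89% of all genes) and 6 of 50 were at least 2-fold higher and 0 lower in cDC1-like cells (2.31% and 1.97% of all genes). Likewise 7 of 40 were at least 2-fold higher and 2 lower in T cell-like cells (3.15% and 10.6% of all genes) and 0 of 35 were at least 2-fold higher and 5 lower in neutrophil-like cells (5.07% and 7.14% of all genes). Finally 3 of 33 were at least 2-fold higher and 5 lower in eosinophil-like cells (6.83% and 6.37% of all genes) and 0 of 37 were at least 2-fold higher and 6 lower in B cell-like cells (0.763% and 6.43% of all genes). The shares of all genes for the resident, monocyte-like and pooled cells are those given above.

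Within cells, Nfkbiz was found more often together with Tnf. Among pooled macrophages and monocytes thinned to 2000 UMIs, 285 WT cells had a Tnf UMI and 400 had none, and in KO 261 had one and 187 had none. Nfkbiz was detected in 76.8% of Tnf-positive and 61.2% of Tnf-negative cells in WT, and in 84.7% of Tnf-positive and 68.4% of Tnf-negative cells in KO, with exact intervals that did not overlap in either library. Tnfaip3 was detected in 77.9% of Tnf-positive and 69.2% of Tnf-negative cells in WT, with overlapping intervals, and in 83.1% of Tnf-positive and 66.8% of Tnf-negative cells in KO, without overlap. For Nfkbia the intervals were apart in WT, 97.5% of Tnf-positive and 92% of Tnf-negative cells, and overlapped in KO, 96.2% of Tnf-positive and 94.1% of Tnf-negative cells. The other 6 genes had overlapping intervals in both libraries of the pool. For Nfkbie the shares were 18.6% of Tnf-positive and 23% of Tnf-negative cells in WT and 15.3% of Tnf-positive and 13.4% of Tnf-negative cells in KO, and for Tnip3 23.9% of Tnf-positive and 18.2% of Tnf-negative cells in WT and 25.3% of Tnf-positive and 28.3% of Tnf-negative cells in KO. In the 223 thinned WT resident macrophage-like cells alone, the intervals were apart for Nfkbiz, 76.4% of Tnf-positive and 57.5% of Tnf-negative cells, and for Nfkbia, 96.6% of Tnf-positive and 82.1% of Tnf-negative cells. In the 110 thinned KO cells of that class, of which 29 had no Tnf UMI, the Nfkbiz and Tnfaip3 intervals overlapped, at 75.3% of Tnf-positive and 58.6% of Tnf-negative cells for Nfkbiz and 74.1% of Tnf-positive and 51.7% of Tnf-negative cells for Tnfaip3, while those of Rel did not, at 74.1% of Tnf-positive and 41.4% of Tnf-negative cells. These are cells of 1 library each at equal depth, and they describe those libraries only.

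Across classes, the profile of Tnf was most like those of Rsad2, an interferon-induced antiviral gene (Pearson r 0.97), C5ar2, a complement receptor (0.96), the neutrophil chemokine genes Cxcl2 (0.93) and Cxcl1 (0.92), and the transcription factor gene Mitf (0.92). The measure was r of log2(CPM + 10) over 16 points, 8 classes in each of 2 libraries, among 9485 genes with at least 200 UMIs. The points share their libraries and depth, and r is given as a description. Of the members, Nfkbiz was closest to Tnf (0.88), then Nfkbia (0.81), and the nearest pair among the 10 was Nfkbia and Nfkbiz (0.94). Tnip3 and Rel had r of 0.09 and -0.18 with Tnf.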

How the data were processed

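Per the labels, cells of a Percoll gradient were stained for sorting and made into 10x 3′ libraries. The deposited files hold raw UMI counts per gene and barcode, and per the file headers the authors made them with Cell Ranger 3.0.2. The submitters' processing notes name mm10 and Seurat 4, and the gene annotation is not given in the sources used here. The filters of the study were applied here: cells with fewer than 200 or over 6000 genes, or over 15% mitochondrial UMIs, were removed, leaving 2597 of 3185 WT and 2514 of 3020 KO barcodes. DESC, with which the study clustered, was not run.

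Counts were scaled to 10000 per cell, and 2000 variable genes without the 10 members and 56 pathway genes, 30 components, 15 neighbours and Leiden resolution 1 gave 21 clusters (scanpy 1.11.5, leidenalg 0.10.2, scikit-learn 1.9.0, Python 3.11.15). Each cluster was named for the class with most of its fixed markers raised, at least 2-fold over other cells with a prior of 10 CPM and detected in 10% of its cells, needing at least 3. Rebuilt names may differ from those of the study. There were 3 unnamed clusters, holding 5.08% of the WT library and 8.31% of the KO library. Scrublet called 1 WT and 9 KO cells, or 0.0385% and 0.358%. Whether it missed doublets was not tested, and doublets may remain among the kept cells. Removing the top 3% of its scores is an alternative. UMIs were summed per class and library. Ratios carry exact conditional binomial 95% intervals, levels exact Poisson and shares exact Clopper-Pearson intervals. On simulated Poisson counts, intervals held the true ratio for 95.8% of 5528 genes in resident macrophage-like cells. The simulation assumed the same counting error as the intervals and had no spread between cells or mice. It therefore checks the computation and does not show that the intervals cover the spread in these data. The thinned shares come from 1 random draw. A ratio counts as past 2-fold with a log2 size of at least 1 and at least 50 UMIs over both libraries.

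The text names all 10 members, the 3 highest and 3 lowest pathway genes in the pooled, resident and monocyte classes, and the 5 genes most like Tnf. The members and gene lists were chosen with earlier results of these data known. Of 31053 features, 30934 had an identifier in GENCODE M21.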

Additional observations from a re-analysis of the deposited data

Results flagged for a closer look

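Of the 10 genes, 2 had KO to WT log2 ratios of opposite sign in resident macrophage-like and monocyte-like cells with each counting interval away from 0. The share of all genes that meet this rule is not given here. The count is therefore not read as a result about the 10 genes. For Nfkbia the ratio was -0.23 in resident macrophage-like and 0.10 in monocyte-like cells, a difference of -0.34. For Nfkb1 it was 0.33 and -0.29, a difference of 0.62. With 1 library per genotype neither difference was tested. The opposite signs of Nfkbia were not kept when the Retnla, Ccl24 and Lpl cluster was counted as resident macrophage-like (0.14 in that class), and those of Nfkb1 were not kept within the Cxcl9 and Tgfbi or the Chil3 and Ace monocyte cluster (0.07 and 0.02).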

How the results depend on the processing

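Of 1041 alternative values of the 85 ratios, 946 kept the sign of the main value, 95 had the opposite sign and 777 lay within its counting interval. Of the 68 alternatives of the 7 ratios past 2-fold, 66 stayed past 2-fold in the same direction. Alternatives with too few UMIs are not among the 68. Tnip3 in T cell-like and neutrophil-like cells and Nfkb2 in eosinophil-like cells thus had 7, 5 and 4 values, against 13 for each of the others. The count of 66 therefore rests mostly on the ratios with more UMIs. Of the 973 alternatives of the other 78 ratios, 28 were past 2-fold, in 17 of those ratios, and 14 of the 28 were in cDC1-like cells. Tnf was higher in KO in resident macrophage-like, monocyte-like and pooled cells under every alternative run. Taken relative to the gene-wide median, the 3 log2 ratios were 2.63, 0.70 and 1.33. At Leiden resolution 0.5 they were 1.65, 0.31 and 1.23. With each library clustered alone the resident and monocyte ratios were 2.01 and 0.32, and by highest marker score per cell the resident and pooled ratios were 2.12 and 1.29. As means over cells the monocyte and pooled ratios were 0.71 and 1.28, under the stricter cell filter 0.69 and 1.42, and with 4000 variable genes 0.69 and 1.47. These settings do not hold the same cells. In WT the resident, monocyte and pooled classes had 279, 604 and 883 cells in the main setting, 829, 70 and 899 at resolution 0.5, 231, 58 and 289 with 4000 variable genes and 251, 117 and 368 under the stricter filter. With all genes allowed into the clustering the pooled ratio was 1.23. Among alternatives chosen after seeing the data, the Retnla, Ccl24 and Lpl cluster gave 2.07 when counted as resident and 1.23 when added to the pool, and the monocyte ratio was 0.91 in the Cxcl9 and Tgfbi cluster and 0.38 in the Chil3 and Ace cluster. The count of members past 2-fold in the pool was 1, and 2 under the stricter filter and with 4000 variable genes. The shares of all genes past 2-fold under those alternatives are not given here, so these counts are not compared. Tnip3 in neutrophil-like cells reversed from 1.94 to -0.33 by highest marker score, on 3 WT UMIs in the main setting. The cause of these shifts was not tested. No paired analysis was possible because each genotype is 1 library, and no library could be left out. With each library clustered alone no WT cluster was eosinophil-like, so that class has no value there. Ratios on fewer than 50 UMIs are not used.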

Other observations

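Some values belong to no named class. In the unnamed Retnla, Ccl24 and Lpl cluster Tnip3 was at 578 CPM (455 to 725) in the 17 WT cells and 500.4 CPM (467 to 536) in the 142 KO cells. In the 588 WT and 506 KO barcodes that failed the cell filters, Tnf was at 42.8 CPM (36.0 to 50.7) and 220.2 CPM (193 to 250.4), and Tnip3 at 73.5 CPM (64.4 to 83.5) and 455 CPM (415 to 497). Over all kept cells, a mix whose class shares differ between libraries, Tnf was at 146 CPM (140.3 to 151) for WT and 315 CPM (307 to 322) for KO, and Tnip3 at 117 CPM (113 to 122) and 422 CPM (413 to 430.3).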
